A study of Mus musculus with 2 samples.

Results

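The messages of 10 genes that gate entry into the cell cycle were followed in cultured mouse aortic vascular smooth muscle cells (VSMCs), taken by their gene symbols from all genes counted. They are the D-type cyclins Ccnd1, Ccnd2 and Ccnd3, the cyclin-dependent kinase (CDK) inhibitors Cdkn1a, Cdkn1b, Cdkn2a and Cdkn2b, and p53 (Trp53) with Mdm2 and Gdf15. VSMCs came from C57BL/6 mouse aortas, of animals aged 12 weeks (young) or 58 to 78 weeks (old), and were primary cells bought from suppliers and cultured for few passages. The groups were untreated young cells, untreated old cells, young cells given 100 nM angiotensin II (AngII) over 48 h, and old cells that received siPiezo1, an siRNA to the mechanosensitive ion channel Piezo1. Each group was stained with an antibody that carries a DNA tag, and the 4 groups were mixed into 1 droplet library, in which a unique molecular identifier (UMI) counts each captured RNA molecule once.

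Of 13045 cells (at least 2218 UMIs and 200 genes), 3144 carried tag 1, 497 tag 2, 1500 tag 3 and 1529 tag 4, while 5307 had no tag above its cutoff and 1068 had more than 1. Tags 1 to 4 are called young, old, young + AngII and old + siPiezo1 by the numbers that a drawing of the experiment gives these groups. That drawing does not say that its numbers are tag numbers, so the tag is kept beside each value. Neither the labels nor the methods tell cultures of a group apart, so each tag was taken as 1 culture, no test between groups was possible, and the intervals given (95%) cover counting error only. The median count of a cell's own tag was 364 in tag 1 and 67 to 113 in the other tags, so tag 1 was told apart best. Median depth was 6816 UMIs per cell in tag 1 and 9453 to 10663 in the other tags. Summed VSMC markers lay between 1654 and 3174 counts per 1000000 UMIs (CPM), endothelial, macrophage and epithelial markers at or below 11.7 CPM, and fibroblast markers, several of which cultured VSMCs also make, between 764 and 1111 CPM. Piezo1 was at 89.6 CPM (82.0–97.9) in tag 2 and 86.9 CPM (82.4–91.5) in tag 4, so the target of the siRNA does not check the label of tag 4. The tags differed in sex-linked transcripts. Cells with Y-linked UMIs and no Xist UMI made up 54.1% and 55.5% of tags 1 and 3 but 19.5% and 13.8% of tags 2 and 4. Cells with Xist and no Y-linked UMIs made up 4.90% and 6.27% of tags 1 and 3 but 63.0% and 66.8% of tags 2 and 4. In whole tags, age and sex-linked make-up therefore cannot be told apart.

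D-type cyclins join Cdk4 or Cdk6 to phosphorylate the retinoblastoma protein, which frees E2F factors to turn on the genes of DNA replication. The Ink4 inhibitors, made from Cdkn2a and Cdkn2b, bind Cdk4 and Cdk6, while the Cip/Kip inhibitors p21 (Cdkn1a) and p27 (Cdkn1b) bind cyclin-CDK complexes, above all those of Cdk2. Cdkn2a also encodes Arf, which holds back Mdm2, the ubiquitin ligase that marks p53 for breakdown. Cdkn1a, Mdm2 and Gdf15, a secreted stress cytokine, are all induced by p53, and Cdkn1a and Cdkn2a are widely used as markers of senescent vascular cells.

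In the GENCODE annotation of mouse genome GRCm38, looked up by the identifiers of the files, Ccnd1 (ENSMUSG00000070348) lies on chromosome 7 at 144929931 to 144939925. Cdkn2a (ENSMUSG00000044303) spans 89274471 to 89294653 on the minus strand of chromosome 4, next to Cdkn2b (ENSMUSG00000073802) at 89306299 to 89311039. Cdkn2a has 2 coding transcripts, whose first exons are 89294334 to 89294653 (the Arf start) and 89281986 to 89282192 (the Ink4a start). Their last exons begin at the same base, 89274774, and reach 89274471 in the Ink4a transcript and 89274541 in the Arf transcript, so a count taken near the 3′ end joins both messages. Ccnd1, Ccnd2, Ccnd3 and Cdkn1a overlap a gene on the other strand, and the sources used here do not say how the counting treated strand.

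The bases before the starts of 5 of these genes are shown. In the results that follow, Cdkn1a, Mdm2 and Trp53 were higher in value in cells with proliferation markers than in cells without, in every tag. Cdkn2a and Cdkn2b were lower in every tag. These are not all the genes with such a direction. Gdf15, which had the highest ratio, and Cdkn1b were also higher in value in every tag, and Ccnd2 lower, but their bases are not shown. The bases are from RefSeq (GRCm38.p6), whose table matched 8 of the 10 genes, with any base that GENCODE places in an exon left off. Capitals mark the p53 half-site, or, in Cdkn2a, the E2F motif.
Cdkn1a, upstream start, chr17:29090729-29090975 (+ strand): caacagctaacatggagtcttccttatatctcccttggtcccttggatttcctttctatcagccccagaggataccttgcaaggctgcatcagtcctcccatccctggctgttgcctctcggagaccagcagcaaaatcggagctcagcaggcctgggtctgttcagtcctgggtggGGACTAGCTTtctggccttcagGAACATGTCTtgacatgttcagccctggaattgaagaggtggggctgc
Mdm2, chr10:117710759-117711008 (- strand): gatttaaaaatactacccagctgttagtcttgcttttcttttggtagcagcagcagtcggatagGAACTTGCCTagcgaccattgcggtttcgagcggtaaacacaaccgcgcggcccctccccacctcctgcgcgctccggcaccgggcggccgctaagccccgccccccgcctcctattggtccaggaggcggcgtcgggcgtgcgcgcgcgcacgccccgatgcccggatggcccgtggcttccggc
Trp53, chr11:69580109-69580358 (+ strand): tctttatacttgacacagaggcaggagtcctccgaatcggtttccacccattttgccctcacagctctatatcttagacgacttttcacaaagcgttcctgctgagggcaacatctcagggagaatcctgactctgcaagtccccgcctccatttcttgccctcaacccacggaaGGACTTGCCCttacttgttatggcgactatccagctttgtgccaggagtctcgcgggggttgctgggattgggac
Cdkn2a, start nearer Cdkn2b, chr4:89294654-89294869 (- strand): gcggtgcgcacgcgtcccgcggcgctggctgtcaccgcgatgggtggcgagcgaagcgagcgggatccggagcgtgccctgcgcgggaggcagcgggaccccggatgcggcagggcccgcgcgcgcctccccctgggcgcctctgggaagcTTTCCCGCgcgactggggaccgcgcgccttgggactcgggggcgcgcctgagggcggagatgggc
Cdkn2a, start within the gene, chr4:89282193-89282442 (- strand): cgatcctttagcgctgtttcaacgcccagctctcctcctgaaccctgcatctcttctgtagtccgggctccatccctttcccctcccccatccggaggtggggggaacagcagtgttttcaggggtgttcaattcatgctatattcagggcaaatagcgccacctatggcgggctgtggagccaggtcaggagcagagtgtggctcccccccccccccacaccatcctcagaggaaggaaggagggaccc
Cdkn2b, chr4:89311040-89311282 (- strand): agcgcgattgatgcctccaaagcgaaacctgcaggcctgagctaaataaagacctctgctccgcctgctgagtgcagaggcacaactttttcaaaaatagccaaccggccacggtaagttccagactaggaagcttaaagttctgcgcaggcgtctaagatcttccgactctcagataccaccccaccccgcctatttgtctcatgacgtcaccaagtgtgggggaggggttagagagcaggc

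The p53 half-site occurred in 7.13% of the 32851 promoters in that table over the 250 bases before the start, searched on both strands. Within those bases it was found 2 times at the upstream Cdkn1a start, 1 time at Mdm2 and 1 time at Trp53. It was found 0 times at either Gdf15 start, at the second Cdkn1a start and at the starts of the other members in the table. Gdf15 and Cdkn1b thus lacked the half-site there, though both were higher in value in cells with proliferation markers. Whether the half-site goes with that direction was not tested. The E2F letters (TTTCGCGC, TTTCCCGC, TTTGGCGC or TTTGCCGC, on either strand) occurred in 1.86% of promoters. Among the 12 starts of members in the table they were found only at the Cdkn2a start nearer Cdkn2b, which is the Arf start. They lay 99 bases before the start that RefSeq gives, which is inside the first exon that GENCODE gives for Arf. These are matches of letters and not tests of binding.

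Messages of the D-type cyclins, p21 and Mdm2 were abundant, and those of p27, p15 (Cdkn2b) and Gdf15 scarce. Because each molecule is counted once at its 3′ end, CPM is not divided by transcript length here. In the pool of all cells Ccnd1 was at 837 CPM, rank 159 of all genes, Ccnd2 at 758 CPM and Cdkn1a at 663 CPM. Mdm2 followed at 408 CPM and Cdkn2a at 283 CPM. Thus an Ink4a/Arf message was read in 75.9% of cells and a Cdkn1a message in 92.2%. Trp53 (137 CPM), Ccnd3 (105 CPM) and Cdkn2b (47.9 CPM) were lower, and Gdf15 (24.8 CPM) and Cdkn1b (14.6 CPM) were read in 11.2% and 11.7% of cells. All 10 genes passed the minimum of 10 CPM in the pool that was set for the background of 8462 genes. In near-empty barcodes, which hold free RNA, the 10 genes were at 13.4 (Cdkn1b) to 639 CPM (Ccnd1). Free RNA was estimated at 3.13% of a cell's UMIs from the share of cells with Y-linked UMIs that hold no Xist, and subtracting it moved none of the 70 ratios reported below by more than its counting interval.

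**Figure D1:**
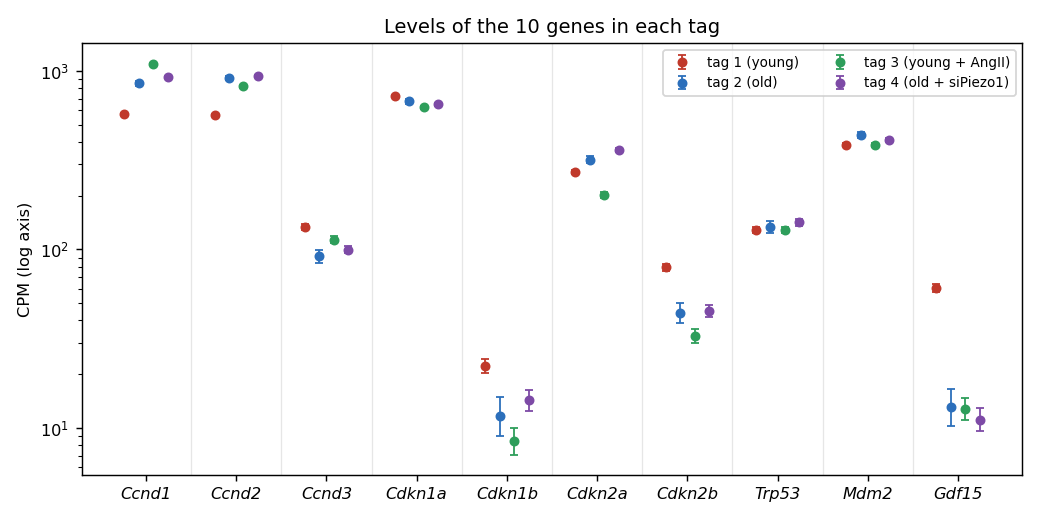
CPM (log axis) of the 10 genes in the cells of each tag, with 95% Poisson intervals. Ccnd1 and Ccnd2 are lowest in tag 1, and Cdkn1b, Cdkn2b and Gdf15 highest there, while Trp53 lies between 128 and 142 CPM in all 4 tags.

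Young cells differed from the other 3 groups in which D cyclins they held. For Ccnd1, a cyclin induced by growth factors and adhesion, young cells (tag 1) held 572 CPM (563–582), old cells (tag 2) 853 (828–877), young + AngII cells (tag 3) 1090 (1074–1107) and old + siPiezo1 cells (tag 4) 925 (910–940). No intervals overlap in that order, so AngII-treated young cells were highest and untreated young cells lowest. Among cells with Y-linked UMIs and no Xist the top of the order turned in value, with 1196 CPM (1152–1241) in tag 4 and 1129 (1107–1152) in tag 3, intervals that meet. Among cells with Xist and no Y-linked UMIs tag 3 held 916 CPM (860–975), tag 2 846 (815–877), tag 4 832 (815–850) and tag 1 792 (749–838), where the intervals of neighbours overlap. Ccnd2 was at 567 CPM (558–577) in tag 1, 916 (891–941) in tag 2, 818 (804–833) in tag 3 and 938 (923–953) in tag 4, and only tags 2 and 4 overlap. Ccnd3 was highest in tag 1 instead, with 133 CPM (129–138) in tag 1, 91.3 (83.5–99.5) in tag 2, 113 (108–119) in tag 3 and 99.8 (95–105) in tag 4. Old cells were lowest in Ccnd3, though not beyond counting error from old + siPiezo1 cells. Together the D cyclins reached 1273 CPM in tag 1 against 1860, 2022 and 1962 CPM in tags 2 to 4, and Ccnd3 made up 10.5% (10.1–10.8) of them in tag 1 but 4.91% to 5.61% in the other tags.

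Among the CDK inhibitors, p15 and p27 messages were highest in young cells and the Ink4a/Arf message in old + siPiezo1 cells. Cdkn2b was at 79.6 CPM (76.1–83.3) in tag 1, 44.1 (38.8–50) in tag 2, 32.7 (29.8–35.7) in tag 3 and 45.1 (41.9–48.5) in tag 4. Cdkn1b was at 22.3 CPM (20.4–24.2), 11.7 (8.99–14.9), 8.44 (7.03–10.0) and 14.3 (12.5–16.2) in the same order. For both genes tag 1 stood above every other tag, tags 2 and 4 overlapped and tag 3 was lowest, with its Cdkn1b interval touching that of tag 2. Cdkn2a ran differently from its neighbour Cdkn2b, with 271 CPM (264–277) in tag 1, 318 (303–333) in tag 2, 201 (194–209) in tag 3 and 362 (353–371) in tag 4, none of which overlap. Cdkn1a spanned little, from 626 CPM (613–639) in tag 3 to 726 (716–737) in tag 1, with 678 (656–700) in tag 2 and 651 (639–664) in tag 4. In whole tags the p21 message was thus highest in untreated young cells, and tags 2 and 4 overlapped. Among cells with Y-linked UMIs and no Xist, tag 1 was also highest in value, at 732 CPM (717–746). Among cells with Xist and no Y-linked UMIs, tag 2 was highest in value, at 691 CPM (663–720), against 664 (624–706) in tag 1. Tags 3 and 4 held 655 and 661 CPM there, and the intervals of all tags overlap.

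In the p53 group, Trp53 itself was nearly level, at 128 CPM (124–133) in tag 1, 134 (124–144) in tag 2, 129 (123–134) in tag 3 and 142 (136–148) in tag 4, where only tag 4 lies above tags 1 and 3. In whole tags Mdm2 was at 386 CPM (378–394), 439 (422–457), 383 (373–393) and 411 (401–421), highest in old cells. With each cell thinned to 5000 UMIs, its ratio of tag 4 over tag 2 was 0.983 (0.914–1.06). That of tag 2 over tag 1 was 1.07. Among cells with Y-linked UMIs and no Xist, tag 2 was also highest in value, at 458 CPM (420–498). Among cells with Xist and no Y-linked UMIs, tag 3 was highest in value, at 462 CPM (422–504), against 443 (421–466) in tag 2. Gdf15 stood out in young cells with 60.5 CPM (57.4–63.7), against 13.1 (10.3–16.5), 12.7 (11.0–14.7) and 11.1 (9.55–12.9) in tags 2 to 4, which overlap one another. In cells thinned to 5000 UMIs each, a Gdf15 UMI was seen in 15.6% of tag 1 cells and in 3.53% to 4.91% of the cells of the other tags.

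Old and young cells (tag 2 over tag 1) also differed in sex-linked make-up, as given above. Between them, 4 of the 10 genes were past 1.5-fold with an interval of the ratio that leaves out 1. Ccnd2 was higher at 1.62-fold (1.56–1.67), and of all genes 8.34% were past the fold in that direction. Cdkn2b at 0.554 (0.483–0.633), Cdkn1b at 0.523 (0.398–0.678) and Gdf15 at 0.216 (0.169–0.274) were lower, a direction held by 9.83% of all genes. Ccnd1 at 1.49 (1.44–1.54) and Ccnd3 at 0.684 (0.622–0.751) lay just inside the fold, and past it at 1.62 and 0.643 without the cells called doublets. Cdkn2a, the Ink4a/Arf gene, was 1.17-fold higher in old cells (1.11–1.24), Cdkn1a 0.933 (0.90–0.966), Mdm2 1.14 (1.09–1.19) and Trp53 1.04 (0.960–1.13), so of the p53 group only Gdf15 was past the fold. The ratio over all genes had a median of 1.02, and that over the 10 genes 0.987.

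Comparing AngII-treated with untreated young cells (tag 3 over tag 1, which shares its control with the comparison before), 4 genes were past the fold. Ccnd1 was higher at 1.91 (1.86–1.95), above 98.1% of all genes, of which 6.90% were past the fold upward. Cdkn2b at 0.410 (0.371–0.453), Cdkn1b at 0.379 (0.310–0.461) and Gdf15 at 0.210 (0.180–0.245) were lower, as were 7.59% of all genes. Ccnd2 was at 1.44 (1.41–1.48), Cdkn2a at 0.744 (0.712–0.777) and Cdkn1a at 0.861 (0.840–0.883). Trp53 at 1.0 (0.945–1.06) and Mdm2 at 0.992 (0.960–1.03) did not differ beyond counting error, though Mdm2 was at 1.06 (1.01–1.10) without doublets. Mitochondrial transcripts, a sign of cell state or RNA quality, had a median share of 0.224% in tag 3 against 1.08% in tag 1, and their part in these ratios was not tested. The p53 message was thus level while messages of 3 CDK inhibitors other than p21 were at or below 0.744 of their level.

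**Figure D2:**
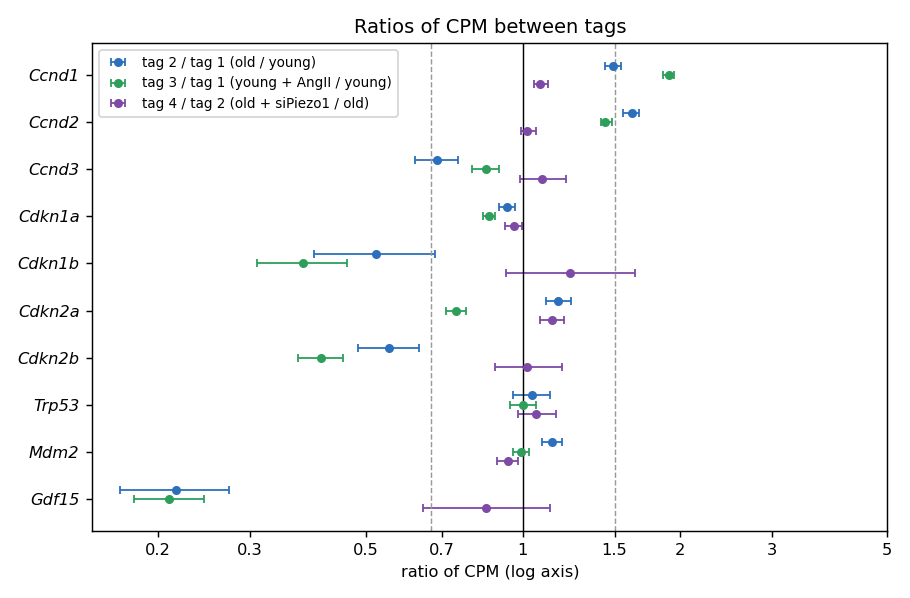
Ratio of CPM between tags (log axis) for each gene, with exact binomial 95% intervals that cover counting error only and dashed lines at 1.5-fold in each direction. Gdf15, Cdkn1b and Cdkn2b lie left of the lower line in both comparisons with tag 1, and no gene passes a line in tag 4 over tag 2.

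The size of these differences from tag 1 depended on which cells were taken by their sex-linked transcripts. Among cells with Xist and no Y-linked UMI, of which tag 1 had 154, tag 2 had 313 and tag 3 had 94, the Ccnd1 ratio was 1.07 for tag 2 and 1.16 for tag 3, and the Ccnd2 ratio 1.22 and 1.05. Only Gdf15 was past the fold there in tag 2 over tag 1, at 0.345, while Cdkn2b was at 0.807 and Cdkn1b at 0.627 with an interval holding 1. In tag 3 over tag 1 the Xist cells had Cdkn1b at 0.362 and Cdkn2b at 0.589 past the fold, while Gdf15 at 0.771 (0.449–1.29) no longer was. In the cells with Y-linked UMIs and no Xist (1700 in tag 1, 97 in tag 2 and 833 in tag 3) the Ccnd1 ratio was 1.44 and 2.01, the Ccnd2 ratio 1.82 and 1.5, and the Gdf15 ratio 0.350 and 0.204. In tag 1 the Xist cells held 792 CPM of Ccnd1 and 29.1 CPM of Gdf15, the Y-linked cells 562 and 61.4 CPM. Whether the Xist cells of tag 1 are young cells of another mouse or cells with a wrong tag cannot be told apart.

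Old cells labelled siPiezo1 and untreated old cells (tag 4 over tag 2) had no gene past the fold, in which 1.69% of all genes were higher and 0.922% lower. Cdkn2a at 1.14 (1.08–1.20) and Ccnd1 at 1.08 (1.05–1.12) were slightly higher in tag 4, and Mdm2 at 0.936 (0.893–0.980) and Cdkn1a at 0.961 (0.926–0.997) slightly lower. With each cell thinned to 5000 UMIs, Mdm2 at 0.983 (0.914–1.06) and Cdkn1a at 0.967 (0.914–1.02) had intervals holding 1. The 2 higher ratios depended on the cells taken. In cells with Y-linked UMIs and no Xist, Ccnd1 was at 1196 CPM in tag 4 and 812 (761–865) in tag 2. Cdkn2a was at 486 (458–515) and 338 (306–373) there. In cells with Xist and no Y-linked UMIs, Ccnd1 was at 832 and 846 CPM and Cdkn2a at 323 and 308, with overlapping intervals. The ratios of the other 6 genes had intervals holding 1, the widest being that of Cdkn1b, at 1.23 (0.927–1.64).

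Cells with a UMI of Mki67 or Top2a, which are made by dividing cells, made up 35.8%, 37.0%, 41.3% and 40.4% of tags 1 to 4, and 31.7% to 35.4% once all cells were thinned to 5000 UMIs. After that thinning 76.1% to 84.5% of the cells with a marker UMI kept one, so a cell without one may still be dividing. Cells with a marker UMI held less Ink4a/Arf, p15 and cyclin D2 message than the other cells of their tag, and more p53, Mdm2 and Gdf15. They were deeper (median 8341 against 6039 UMIs in tag 1) and more often called doublets (34.3% against 17.2% in tag 1, 27.9% to 32.6% against 13.7% to 18.4% in the other tags). The ratios without doublets and at equal depth (each cell thinned to 5000 UMIs) are therefore given with each gene. With 1.5-fold as the mark, 1, 4, 3 and 2 of the 10 genes were past it in tags 1 to 4, upward 1, 2, 2 and 1 (7.49%, 9.57%, 6.80% and 9.50% of all genes) and downward 0, 2, 1 and 1 (0.390%, 4.28%, 0.981% and 2.67%). At equal depth it was 1, 2, 1 and 4 genes, and without doublets 1, 3, 2 and 3. The shares over all genes were not counted in those settings, so these counts have no background beside them.

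Gdf15 had the highest ratio of cells with over cells without these markers in each tag. In tag 1 it was at 85 CPM in cells with markers and 42.0 CPM in cells without, a ratio of 2.02 (1.82–2.25). The ratio was 3.20 (1.91–5.55) in tag 2, 1.80 (1.34–2.45) in tag 3 and 3.12 (2.23–4.43) in tag 4, where cells without markers held only 5.63 CPM. It was between 2.01 and 3.63 without the cells called doublets, and between 1.82 and 4.15 at equal depth. So the stress cytokine that p53 induces was more abundant in the marker-positive cells of every tag.

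Trp53 and Mdm2 were also higher in cells with markers in all 4 tags. For Trp53 the ratio was 1.28 (1.20–1.38), 1.36 (1.17–1.57), 1.17 (1.07–1.29) and 1.32 (1.21–1.43) in tags 1 to 4. For Mdm2 it was 1.31 (1.26–1.36), 1.35 (1.24–1.46), 1.12 (1.06–1.18) and 1.11 (1.05–1.16). All 8 intervals lie above 1 and all 8 ratios inside the fold, and without doublets they lay between 1.10 and 1.41. At equal depth Trp53 lay at 1.17 to 1.38, with an interval holding 1 in tag 2 (0.913–1.5), and Mdm2 at 1.12 to 1.37. Cdkn1a, though a CDK inhibitor, was slightly higher in cells with markers, at 1.17 (1.13–1.20), 1.11 (1.04–1.18), 1.02 (0.976–1.06) and 1.09 (1.05–1.14), so that only in tag 3 does the interval hold 1. It lay at 0.964 to 1.21 without doublets and at 1.0 to 1.18 at equal depth. The p21 message was therefore present at 631 to 792 CPM in cells that hold proliferation markers.

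The Ink4 locus went the other way. Cdkn2a was at 233 CPM with and 299 CPM without markers in tag 1, 258 and 361 in tag 2, 182 and 218 in tag 3, and 306 and 409 in tag 4. Its ratios were 0.781 (0.742–0.821), 0.714 (0.646–0.788), 0.837 (0.778–0.901) and 0.747 (0.709–0.788). Cdkn2b had ratios of 0.799 (0.727–0.877), 0.630 (0.474–0.829), 0.652 (0.539–0.787) and 0.610 (0.522–0.713), past the fold in tags 2, 3 and 4, with only 0.745% to 4.75% of all genes lower still in the 4 tags. Both neighbours on chromosome 4 were thus lower in the cells with markers of all 4 tags, also without doublets. There Cdkn2a lay at 0.675 to 0.772 and Cdkn2b at 0.562 to 0.852. At equal depth Cdkn2a lay at 0.673 to 0.861 and Cdkn2b at 0.568 to 0.747, where Cdkn2b was past the fold in tag 4 only and its interval held 1 in tag 2 (0.431–1.08). Cdkn1b had ratios of 1.05 (0.883–1.25), 1.83 (1.09–3.10), 1.52 (1.05–2.20) and 1.40 (1.07–1.83), from 65, 126 and 230 UMIs in all in tags 2 to 4. It lay at 1.18 to 1.78 without doublets and 1.08 to 2.01 at equal depth, and in both only the interval of tag 4 left out 1.

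**Figure D3:**
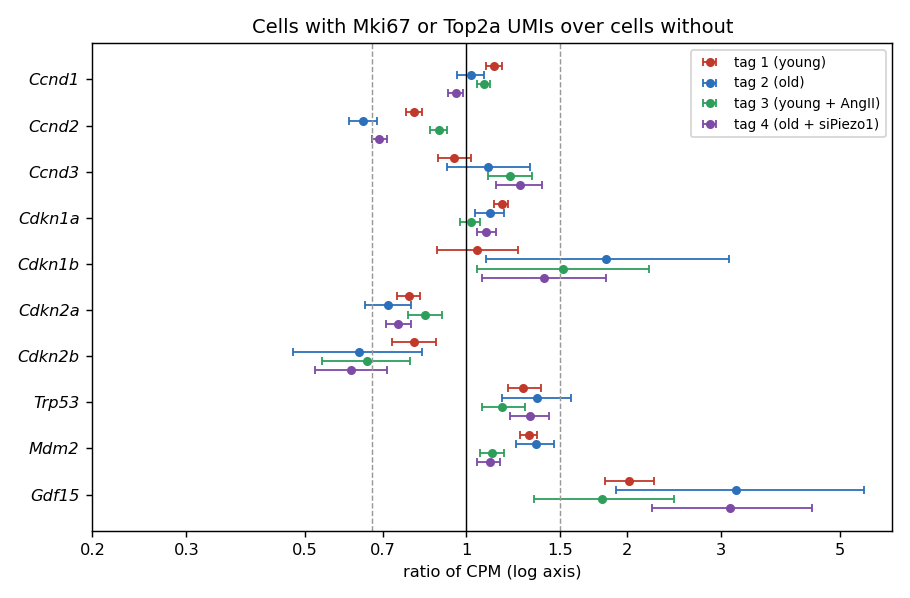
Ratio of CPM in cells with a UMI of Mki67 or Top2a over cells without one (log axis), by gene and tag, with exact binomial 95% intervals and dashed lines at 1.5-fold. Cdkn2a, Cdkn2b and Ccnd2 lie left of 1 and Trp53, Mdm2 and Gdf15 right of 1 in all 4 tags.

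The D cyclins parted between cells with and without markers. Ccnd2 was at 496 CPM with and 621 CPM without markers in tag 1 (0.798, 0.771–0.826), 692 and 1078 in tag 2 (0.642, 0.605–0.681), 766 and 862 in tag 3 (0.889, 0.858–0.922), and 753 and 1094 in tag 4 (0.688, 0.666–0.712). Ccnd1 stayed near 1, at 1.13 (1.09–1.17), 1.02 (0.961–1.08), 1.08 (1.05–1.11) and 0.957 (0.926–0.989). Ccnd3 was at 0.951 (0.886–1.02), 1.10 (0.922–1.32), 1.21 (1.10–1.33) and 1.26 (1.14–1.39). Without doublets Ccnd2 lay at 0.610 to 0.892, Ccnd1 at 0.964 to 1.13 and Ccnd3 at 0.970 to 1.28. At equal depth Ccnd2 ranged over 0.618–0.877, Ccnd1 over 0.919–1.05 and Ccnd3 over 0.919–1.34. The share of Ccnd2 among D-cyclin UMIs was accordingly lower in cells with markers, 40.0% against 47.8% in tag 1, 41.9% against 53.6% in tag 2, 37.8% against 42.7% in tag 3 and 42.6% against 51.5% in tag 4. The share of Ccnd1 was 49.5% to 56.0% in cells with markers and 41.7% to 52.1% in cells without.

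Sorting cells by their number of Mki67 and Top2a UMIs, with each cell thinned to 5000 UMIs, gave steps in the same directions. In tag 1 Ccnd2 was at 622 CPM in cells with 0 marker UMIs (1549 cells), 500 CPM with 1 to 2 (514 cells) and 375 CPM with 3 or more (334 cells). In tag 4 it was at 1068, 857 and 538 CPM, and the intervals of the bins do not overlap in either tag. Cdkn2a was at 298, 258 and 202 CPM in tag 1, 378, 288 and 227 in tag 2, 216, 206 and 145 in tag 3, and 425, 348 and 253 in tag 4, lower at each step in value, with overlapping intervals at both steps in tag 2 and at the first step in tag 3. Trp53 was at 111, 144 and 168 CPM in tag 1 and 128, 156 and 193 in tag 4, higher at each step in value. Its intervals overlap at the last step in tag 1 and at both steps in tag 4, where those of the outer bins do not. In tag 2 its intervals overlap throughout (115, 138 and 133 CPM). Mdm2 was at 344, 449 and 472 CPM in tag 1 and 360, 407 and 507 CPM in tag 3, with overlap of the last bins in tag 1 and of the first in tag 3. Gdf15 in tag 1 was highest in the middle bin, with 40.7, 95.3 and 74.9 CPM. Cells with 3 or more marker UMIs thus still held as much Ccnd1 as cells with none in tags 1 (533 against 537 CPM) and 3 (1055 against 1058 CPM), while in tag 4 they held 789 against 903 CPM.

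**Figure D4:**
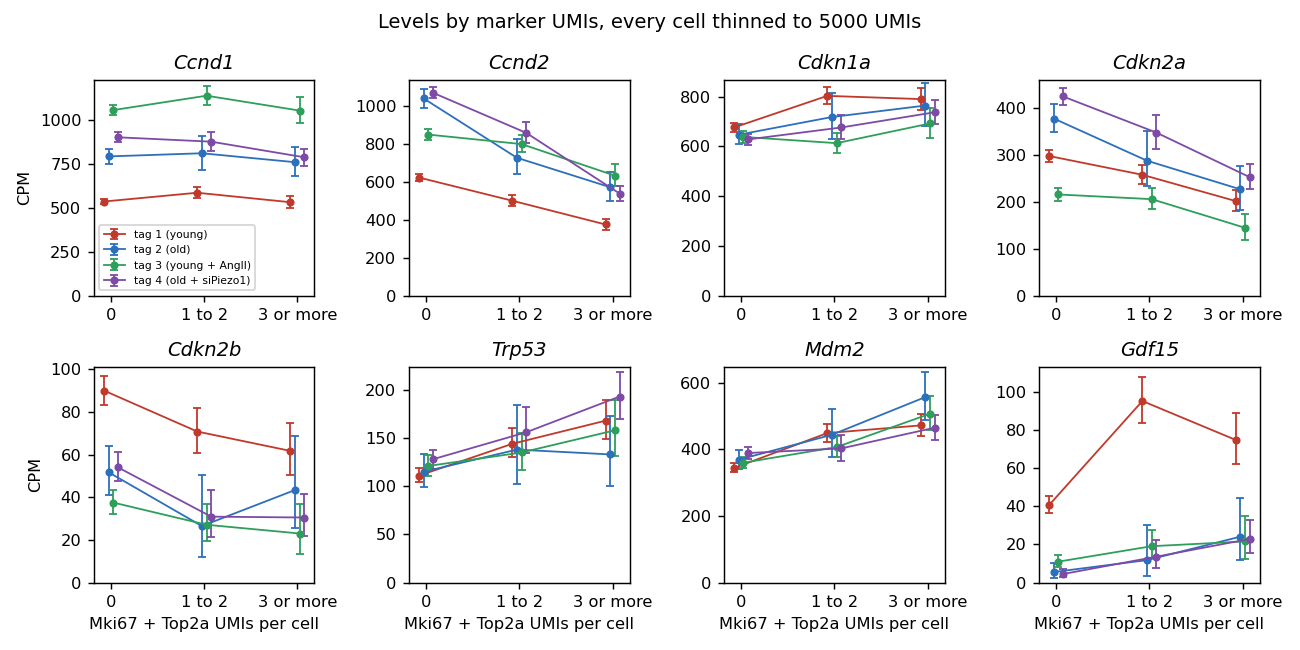
CPM of 8 genes against the number of Mki67 and Top2a UMIs in a cell (0, 1 to 2, 3 or more), by tag, with every cell thinned to 5000 UMIs and Poisson 95% intervals. Cdkn2a and Ccnd2 step down in value in all 4 tags, and Mdm2 steps up, with overlap of some neighbouring bins.

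How unevenly a message is spread over the cells of a tag was measured as its squared coefficient of variation beyond counting, and set beside genes of like level. Trp53 was the most even of the 10, at 0.0425 to 0.0738, where the median gene of its level had 0.134 to 0.156. Only 4.91% to 18.9% of genes of like level were more even in the 4 tags. Gdf15 was the least even, at 6.43 to 16.3, above at least 98.9% of genes of like level. Of its UMIs, 61.3% to 84.4% lay in the top 5% of cells, against 40.2% to 66.7% for Cdkn1b, which is about as scarce, and 1 cell of tag 1 held 46 of them. Mdm2 was spread more unevenly than 87.9% or more of genes of its level (0.505–0.663), and Cdkn2b more than 82.0% or more (0.452–1.0). Cdkn2a lay at 0.357 to 0.513 against medians of 0.120 to 0.149, so the Ink4a/Arf message was neither confined to few cells nor even. Its top 5% of cells held 17.2% to 21.9% of its UMIs, with at most 23 UMIs in a cell.

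**Figure D5:**
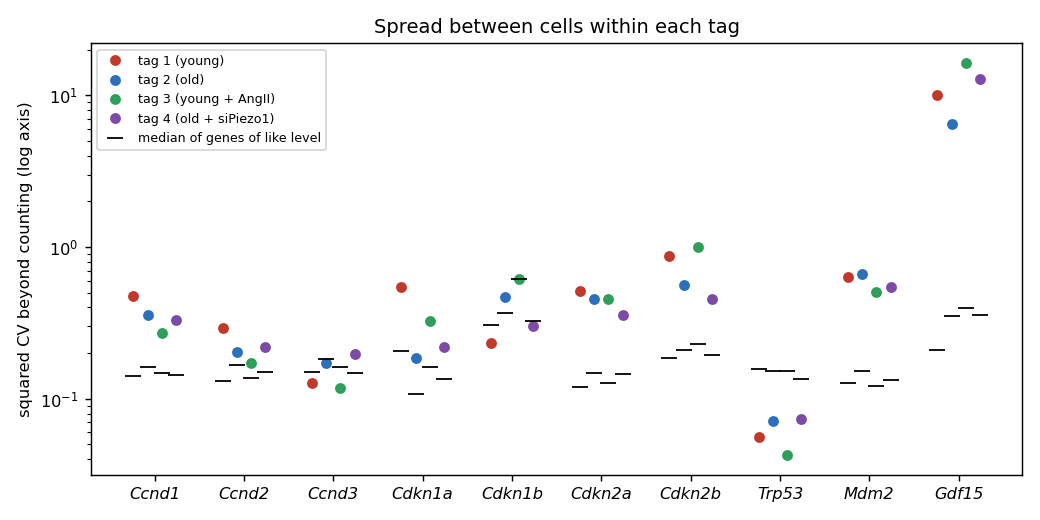
Squared coefficient of variation between cells beyond counting (log axis) for each gene in each tag, with black bars at the median of genes of like level in the same tag. Trp53 lies below the bars and Gdf15 above them in all 4 tags.

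Cells rich in p21 message also held more Mdm2 and Phlda3 message in all 4 tags. With each cell thinned to 5000 UMIs, Mdm2 in tag 1 was at 289 CPM (269–309) in cells with 0 to 1 Cdkn1a UMIs, 374 (359–388) with 2 to 5 and 552 (521–585) with 6 or more. Its ratio of the last to the first bin was 1.91 (1.75–2.09) in tag 1, 1.71 (1.42–2.07) in tag 2, 1.60 (1.42–1.80) in tag 3 and 1.68 (1.48–1.90) in tag 4. Gdf15 had ratios of 7.65 (5.80–10.2) in tag 1, 2.66 (1.49–4.84) in tag 3 and 2.60 (1.08–6.68) in tag 4, and in tag 2, from 8 UMIs in the outer bins, 4.04 (0.723–40.9). Phlda3, a p53 target that restrains Akt, was higher as well, at 1.61 (1.41–1.84), 1.83 (1.30–2.59), 1.73 (1.40–2.14) and 1.43 (1.15–1.78) in tags 1 to 4. Ccng1 and Zmat3, further p53 targets, were less regular, Ccng1 at 1.39, 0.965, 1.34 and 1.35 and Zmat3 at 1.13, 1.15, 1.06 and 1.42. The intervals held 1 for Ccng1 in tag 2 and for Zmat3 in tags 1 to 3. Cdkn2b was at 1.33 (1.10–1.61) in tag 1, with intervals holding 1 in tags 2 to 4. Trp53 was at 1.04 (0.890–1.22), 1.10 (0.768–1.56), 1.27 (1.02–1.57) and 1.18 (0.958–1.45). The p53 message itself was thus above 1 beyond counting error only in tag 3. Cdkn2a was at 0.899 to 1.11 with all 4 intervals holding 1, and the D cyclins were level or lower, with Ccnd2 at 0.874 (0.808–0.944) in tag 1 and 0.973 (0.898–1.05) in tag 4. Cells with 6 or more Cdkn1a UMIs were not short of proliferation markers, since 40.9%, 45.2%, 33.8% and 41.6% of them had a marker UMI, against 29.2%, 25.7%, 35.1% and 29.7% of cells with 0 to 1.

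Sorted instead by Gdf15, cells with at least 1 of its UMIs (373, 20, 67 and 50 cells in tags 1 to 4, thinned) held more Cdkn1a than cells with 0 in each tag, at 1.86 (1.78–1.96), 1.41 (1.13–1.74), 1.21 (1.07–1.38) and 1.34 (1.16–1.54). Mdm2 was at 1.60 (1.5–1.72), 1.64 (1.26–2.11), 1.53 (1.31–1.77) and 1.43 (1.20–1.70). Other p53 targets were less regular, since Phlda3 was at 1.48 (1.32–1.65), 0.822 (0.406–1.49), 1.38 (1.04–1.80) and 1.28 (0.910–1.75). Ccng1 was at 1.25 (1.16–1.35) in tag 1 and at 1.06, 1.0 and 1.09 in tags 2 to 4 with intervals holding 1. Ddit3, a gene of the integrated stress response that was looked at after the values of Gdf15 were seen, was at 1.65 (1.5–1.81), 2.68 (1.24–5.18), 2.39 (1.61–3.44) and 1.04 (0.443–2.09). Atf3 and Chac1 of the same response were at 4.07 (2.08–7.82) and 2.21 (1.06–4.32) in tag 1, and Trib3 at 1.16 (0.394–2.86), and all 3 were too scarce in the other tags for an interval that leaves out 1. Ccnd2 was lower in Gdf15 cells in tags 1, 2 and 4, at 0.789, 0.637 and 0.762, and at 0.921 (0.808–1.05) in tag 3.

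The other genes of the pathway give the setting of these values. Of 25 other p53 target genes at 10 CPM or more, 4 (16%) were past the fold higher and 1 lower in tag 2 over tag 1, beside 8.34% and 9.83% of all genes. They were the Polo-like kinases Plk3 (1.77) and Plk2 (1.64), Perp (1.73) and the repair gene Xpc (1.60), and lower the death receptor Fas (0.397). In tag 3 over tag 1 it was 4 higher and 2 lower, led by Perp at 3.20 (2.71–3.79) and by Fas at 0.550 and Bbc3 at 0.554, beside 6.90% and 7.59% of all genes, and in tag 4 over tag 2 it was 0 of 25. The list's median ratio was 1.10 in tag 2 over tag 1 and 0.924 in tag 3 over tag 1, against 1.02 and 1.03 over all genes. In cells with markers 1 or 2 of the 25 were past the fold upward, beside 6.80% to 9.57% of all genes, with Gtse1, which peaks in G2, at 2.17 to 2.80 in the 4 tags, and Perp in tag 3 (0.599) was past it downward.

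A list of 15 G1/S genes held Cdk4, Cdk6, E cyclins, pocket proteins, E2F factors, Cdc25a and Myc. Of these, 2 (13.3%) were higher in tag 2 over tag 1, near the 8.34% of all genes. In tag 3 over tag 1 it was 5 (33.3%) beside 6.90% of all genes, and none was lower in either. The list's median ratio was 1.13 and 1.29. The E cyclins that act after the D cyclins were among those higher, Ccne1 at 1.81 (1.55–2.10) and 2.32 (2.09–2.58), and Ccne2 at 1.63 (1.38–1.93) and 3.01 (2.70–3.36). Cdk4, Cdk6 and the pocket proteins Rb1, Rbl1 and Rbl2 were inside the fold in both comparisons. Cells with markers held 5 to 8 of the 15 (33.3% to 53.3%) past the fold upward in the 4 tags and none downward, beside 6.80% to 9.57% of all genes upward, and Ccne2 there had ratios of 5.98 to 14.1, where Ccnd1 stayed within 0.957 to 1.13. Of 4 other genes taken by a CDK inhibitor symbol, 3 were lower in tag 2 over tag 1 (Cdkn3 0.350, Cdkn1c 0.353, Cdkn2c 0.60), where 9.83% of all genes were. In tag 3 over tag 1 it was 3 (Cdkn1c 0.212, Cdkn3 0.259, Cdkn2d 0.477), where 7.59% of all genes were. In cells with markers Cdkn2c, Cdkn2d and Cdkn3 were past the fold upward in all 4 tags, with Cdkn2c, an Ink4 protein encoded elsewhere than Cdkn2a, at 1.94 to 3.47. Cdkn1c, the third Cip/Kip inhibitor, was past it upward in tag 1 at 1.59 (1.35–1.87), downward in tag 4 at 0.650 (0.455–0.918), and not past it in tags 2 and 3. The Ink4 genes thus differed in direction, Cdkn2a and Cdkn2b lower and Cdkn2c and Cdkn2d higher in cells with markers. Of 9 p53 regulators, 2 were higher in tag 2 over tag 1 (Atr 1.90 and Trp53bp1 1.51), where 8.34% of all genes were. In tag 3 over tag 1, 1 was lower (Ppm1d 0.652), where 7.59% of all genes were, and in cells with markers the kinases Chek1 (2.78–4.64), Atm (1.67–2.07) and Atr (1.51–1.81) were past the fold in all 4 tags, beside 6.80% to 9.57% of all genes upward.

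The genes most like each member were sought by Pearson's r of log2 CPM over 8 groups, the 4 tags with and without markers, which share 1 library and its depth. For Trp53 they were Lcorl (0.996), Odf2 (0.993) and Hnrnpr (0.990), for Mdm2 Htatsf1 (0.977), Cdc27 (0.972) and Cwc22 (0.961), and the r of Trp53 with Mdm2 was 0.870. For Cdkn2a they were S100a1 (0.986), Mmp14 (0.983) and Plpp3 (0.978), and for Cdkn2b Ubb (0.982), Prkg1 (0.977) and Iscu (0.977), with an r of 0.460 between the neighbours. For Ccnd1 they were Trnau1ap (0.981), Fbxo22 (0.981) and Mmp13 (0.979), for Ccnd2 Map1b (0.976), Pcyox1 (0.968) and Dvl3 (0.960), and for Ccnd3 Ergic1 (0.978), Cul3 (0.970) and Tspan4 (0.967). For Cdkn1a they were 1700010K24Rik (0.981), Ddx52 (0.960) and Irak1bp1 (0.946), for Cdkn1b Med6 (0.961), Epb41l3 (0.952) and Baiap2 (0.946), and for Gdf15 Ddx49 (0.985), Reep5 (0.971) and Prpf38a (0.965). Across the same groups Gdf15 and Ccnd2 ran opposite (r of -0.986). With 8 groups and 8458 genes compared, values of this size are a description of these groups.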

How the data were processed

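Aortic VSMCs of 4 groups were tagged with TotalSeq-A antibodies, mixed and sequenced as 1 Chromium Single Cell 3′ library. The authors deposited UMI counts per barcode from Cell Ranger 4, neither normalized nor filtered, with 2472397 barcodes and 4 hashtags. Seurat is also named in the submitters' processing notes. The sources used here name no genome build.

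Barcodes were kept as cells from 2218 UMIs, or 1/10 of the 99th percentile among the 10000 deepest, and from 200 genes. A cell carried a tag if only that tag exceeded its cutoff (36, 52, 61 and 41 UMIs for tags 1 to 4). No column of another sample was present. Analyses used Python 3.11.15, numpy 2.4.6, scipy 1.17.1 and scanpy 1.11.5. Summed counts per tag were scaled to 1000000 (CPM). Intervals at 95% were Poisson for CPM, exact binomial for ratios and Clopper-Pearson for shares, and cover counting error only. A gene was past the fold at 1.5 or more, or its inverse or less, with an interval leaving out 1. Counts of 8462 genes for tag 2 over tag 1 were simulated from a Poisson distribution, with 200 genes changed by a fold of 2. There 95.4% of intervals held the true ratio, and 99.5% of changed and 0.121% of other genes were past the fold. The intervals assume that same distribution, so this checks the calculation only and not the spread between cells or cultures. Thinning drew 5000 UMIs per cell without replacement and left out shallower cells (747, 21, 136 and 114 in tags 1 to 4). Scrublet in scanpy at an expected rate of 0.1 called 3058 cells doublets (23.4%), which were kept except where stated. Free RNA came from 1299325 barcodes with 1 to 100 UMIs.

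The 10 genes, the lists of pathway genes and the cell markers were chosen with earlier results of these data known. Named besides the 10 genes are, in a comparison the text describes, the list genes past the fold, at most the 4 with the largest ratio per direction and list, and the 3 genes most like each member. Phlda3, Ccng1, Zmat3, Ddit3, Atf3, Chac1 and Trib3 beside Cdkn1a or Gdf15 were chosen after values were seen. Alternatives were other tag rules, depth and mitochondrial limits, doublet removal, thinning, centring, free RNA subtraction, stricter marker rules, and cells split by Xist and Y-linked UMIs.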

Additional observations from a re-analysis of the deposited data

Results flagged for a closer look

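The ratio of Ccnd1 between cells with and without proliferation markers lay on different sides of 1 in different groups, with intervals of counting error that leave out 1. In cells with a UMI of Mki67 or Top2a its level was 1.13 times that of the other cells in tag 1 (young) and 1.08 times in tag 3 (young + AngII), and 0.957 times in tag 4 (old + siPiezo1). The direction depended on the cells taken, since in tag 4 it was 1.01 with tag cutoffs doubled or with a tag at least 3 times the next, and 1.04 in cells with Y-linked UMIs and no Xist. Among cells with Xist and no Y-linked UMIs it was 0.876 in tag 1, 0.919 in tag 3 and 0.998 in tag 4. Cdkn2a differed from tag 1 in opposite directions in the 2 groups compared with it, at 1.17 times the young level in tag 2 (old) and 0.744 times in tag 3. With each group taken as 1 culture these differences between groups were not tested.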

How the results depend on the processing

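Of 840 ratios of the 10 genes recomputed under 14 alternatives, 641 stayed within their counting interval, 64 moved beyond it towards 1, 111 moved beyond it away from 1 and 24 moved beyond it to the other side of 1. The cause was not tested. The count of genes past the fold was 4 in tag 2 over tag 1, but 1 among cells with Xist and no Y-linked UMIs, 2 among cells with markers, and 5 or 6 under 6 of the 12 alternatives run, which added Ccnd1, Ccnd3 or both. In tag 3 over tag 1 it was 4, 2 among the Xist cells, and 5 with Ccnd2 added under 3 alternatives. In tag 4 over tag 2 it was 0, and 1 among cells with Y-linked UMIs and no Xist (Cdkn1b at 3.61). For cells with over without markers it was 1 in tag 1 and 0 in the Xist cells. In tag 2 it was 4, and lower under 4 of the 12 alternatives, with 2 after thinning or 1 in the Y-linked cells. In tag 3 it was 3, and lower under 8 of the 12 alternatives, down to 1 with tag cutoffs doubled or after thinning. In tag 4 it was 2, and 1 with a tag at least 3 times the next or in the Y-linked cells, 4 after thinning, 5 for both markers against neither and 4 for 3 or more marker UMIs. Shares over all genes were counted in the main setting only, so the counts under alternatives have no background beside them.

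Of the ratios whose interval left out 1, 14 changed side. In the Xist cells they were Cdkn1a at 1.04 in tag 2 over tag 1, Ccnd3 at 1.02 in tag 3 over tag 1, Ccnd1 at 0.984 in tag 4 over tag 2, and Ccnd1 in cells with over without markers at 0.876 in tag 1 and 0.919 in tag 3. In the Y-linked cells they were Cdkn1a at 1.02 in tag 4 over tag 2, and for cells with over without markers Cdkn1a at 0.970 and Cdkn1b at 0 in tag 2 and Ccnd1 at 1.04 in tag 4. With a tag at least 3 times the next they were Ccnd1 at 0.994 in tag 4 over tag 2, and in tag 4 for marker cells Ccnd1 at 1.01 and Cdkn1b at 0.918, and with cutoffs doubled Ccnd1 there at 1.01. In cells without markers Mdm2 was at 1.02 in tag 4 over tag 2. Of ratios whose interval held 1, 33 changed side, 10 of them beyond that interval. These were, in tag 3 over tag 1, Mdm2 at 1.04 to 1.18 under 4 alternatives and Trp53 at 0.944 with cutoffs doubled, and Ccnd2 at 0.954 in tag 4 over tag 2 in the Xist cells. For marker cells they were Ccnd3 at 1.31 (tag 1) and Ccnd1 at 0.944 (tag 2) in the Xist cells, Ccnd3 at 0.843 in tag 2 with cutoffs doubled, and Cdkn1a at 0.964 in tag 3 without doublets. Centring on the median ratio shifted log2 ratios by at most 0.06. No paired analysis was possible because each group was taken as 1 culture. Depth limits Cdkn1b and Gdf15 most, with 65 and 73 UMIs in tag 2.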
